A study of Mus musculus with 9 samples.

Results

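The MHC class II antigen presentation genes were followed as a set of 10 genes, taken by symbol from the gene counts. They are *H2-Aa*, *H2-Ab1* and *H2-Eb1*, *Cd74*, *H2-DMa*, *H2-DMb1* and *H2-DMb2*, *H2-Oa* and *H2-Ob*, and *Ciita*, and all 10 were found among the 50559 genes listed. RNA-Seq had been performed on myeloid cells sorted by CD45 and CD11b from quadriceps of *mdx* mice, which lack dystrophin and model Duchenne muscular dystrophy. All mice were *mdx* and were collected at 4.5 weeks of age after 7 days of treatment through the drinking water. The vehicle group received the sucralose-containing MediDrop alone, the spironolactone group received this mineralocorticoid receptor antagonist in it, and the prednisolone group received this glucocorticoid in it. Each group had 3 libraries, and each library pooled the cells of 3 pairs of quadriceps. Mice of both sexes were used in every group, the sexes within a pool are not given in the sources used here, and dead cells were not gated out. No healthy control was among these libraries.

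MHC class II molecules are heterodimers of an α and a β chain that carry peptides from the endosomes to the cell surface, where CD4+ T cells read them. *Cd74* encodes the invariant chain, which occupies the groove and guides new dimers to the endosome. There, H2-DM exchanges the last fragment of the invariant chain for peptide, H2-DO restrains H2-DM, and CIITA is the coactivator on which transcription of these genes depends. In muscle, class II is carried mainly by dendritic cells and by part of the macrophages, and IFN-γ is its classical inducer.

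The 9 libraries held between 31469815 and 32943512 counts on genes. Levels are CPM, the counts scaled to the TMM-normalized library total, and changes are log2 fold changes ± SE from the quasi-likelihood fit of edgeR over all 9 libraries. Genes with *P* under 0.05 after Benjamini-Hochberg adjustment over 16618 genes are named as called. All 10 members passed the low-count filter. Markers of the sorted cells were present. *Itgam*, which encodes CD11b, lay between 978 and 1486 CPM and the 7 macrophage markers summed to between 15427 and 18506 CPM. *Xist*, a transcript of female cells, had 318, 217 and 508 CPM in vehicle replicates 1 to 3. It had 712, 380 and 65.3 CPM with spironolactone, and 489, 301 and 303 with prednisolone. Spironolactone replicate 1 was thus the highest of all libraries in *Xist*, and spironolactone replicate 3 the lowest. In its class II share, spironolactone replicate 1 stood apart from replicates 2 and 3 of its group. The 10 genes together took 0.496% of its counts, against 0.792% and 0.768% in the others. The vehicle libraries had 0.516%, 0.524% and 0.418%, and the prednisolone libraries 0.472%, 0.425% and 0.427%. The counts of called members are therefore given with and without it. It was picked by these same values, so a higher count without it is expected from that choice and adds no support.

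The 8 H2 genes lie within 224.3 kb of chromosome 17 (chr17:34311314-34535648, GRCm39), in the order *H2-Oa*, *H2-DMa*, *H2-DMb2*, *H2-DMb1*, *H2-Ob*, *H2-Ab1*, *H2-Aa*, *H2-Eb1*. *Ciita* lies at chr16:10297923-10347694. All of these are on the plus strand but *H2-Aa*. Its annotated span, chr17:34493404-34506798, overlaps that of *H2-Eb1*, chr17:34504236-34535648, on the opposite strand. *H2-DMa* overlaps *Brd2* and *Ciita* overlaps *Dexi* in the same way, and whether reads were counted by strand is not given in the sources used here, so reads in the shared stretches cannot be told apart.

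Class II promoters are known for an X box, bound by the RFX complex, that stands a fixed distance before a Y box, the inverted CCAAT bound by NF-Y. Windows from 250 bases before to 50 after the start of the GENCODE canonical transcript were searched on both strands for an X box core (GNNACNGAT) and for the Y box (ATTGG). The X box core was in 5 of the 10 members' windows and in 7.18% of 21770 windows of protein-coding genes. The Y box was in 8 of 10 and in 39.9% of all windows. An X box core followed on the same strand by a Y box, with 0 to 30 bases between them, was in 3 members and in 0.271% of all windows. Those 3 are shown because they carry the arrangement in full, with both motifs in capitals, and they belong to an α chain of H2-DM and to both classical β chains.
H2-Ab1, chr17:34482104-34482180, plus strand: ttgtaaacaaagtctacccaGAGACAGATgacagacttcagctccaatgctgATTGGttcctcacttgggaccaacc
H2-Eb1, chr17:34524730-34524806, plus strand: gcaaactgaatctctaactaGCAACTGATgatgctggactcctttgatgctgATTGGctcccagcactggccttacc
H2-DMa, chr17:34354468-34354545, plus strand: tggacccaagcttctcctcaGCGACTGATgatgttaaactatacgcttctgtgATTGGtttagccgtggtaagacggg
The bases between the motifs numbered 23 in *H2-Ab1*, 23 in *H2-Eb1* and 24 in *H2-DMa*, and the X box core began at -59, -63 and -72 from the annotated start. *H2-DMb1* and *H2-Oa* had the core without this arrangement, and *H2-Aa*, *H2-DMb2*, *H2-Ob* and *Cd74* had the Y box only. The window of *Ciita*, which is known to be read from several promoters, held neither. The motifs can share the letters AT, which the spacing used here does not allow, and a match of letters is a description and not a bound site.

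In vehicle libraries the members differed widely in level per length (CPM per kb of summed exons). *Cd74* was highest at 867 ± 136 CPM per kb (SD, *n* = 3), followed by *H2-Ab1* at 375 ± 27.4, *H2-Aa* at 198 ± 18.7 and *H2-Eb1* at 181 ± 14.9. The editors of the peptide groove lay below the classical chains, with *H2-DMb1* at 66.4 ± 3.74 and *H2-DMa* at 48.6 ± 7.90. *Ciita*, at 6.87 ± 1.08 CPM per kb, *H2-DMb2*, at 4.64 ± 0.396, *H2-Oa*, at 1.95 ± 0.0879, and *H2-Ob*, at 0.988 ± 0.307, were lowest. Of the 9 neighbours in this order, only *H2-Aa* and *H2-Eb1* overlapped among vehicle libraries. With the longest transcript as the length, *H2-Aa* and *H2-Eb1* changed places, as did *H2-DMb1* and *H2-DMa*.

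Whether the drugs changed class II transcripts was asked in 3 comparisons. The members were highest with spironolactone, and 6 of 10 were called higher with spironolactone than with prednisolone: *H2-Aa*, *H2-Ab1*, *H2-Eb1*, *H2-DMb1*, *H2-Oa* and *Ciita*. Of all genes tested, 5.17% were called in this comparison. The members' median log2 fold change was 0.64, against 0.026 over all genes. In 7 members, the called 6 and *H2-Ob*, every spironolactone library was above every prednisolone library, which held in one direction or the other for 30.3% of genes. Without spironolactone replicate 1, 8 members and 4.55% of all genes were called, and the log2 fold changes lay between 0.34 for *H2-DMb2* and 1.49 for *H2-Oa*. The count was 2, *H2-Ab1* and *H2-Oa*, without spironolactone replicate 2 or 3 or without any 1 of the prednisolone libraries. In these 5 fits, 1.35% to 2.41% of all genes were called.

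Neither drug gave a called member against vehicle. With spironolactone all 10 members had a positive log2 fold change against vehicle, from 0.35 to 0.87 with a median of 0.55 (all genes, 9.04e-05), and 10 had an unadjusted *P* under 0.05 in edgeR, beside 9.29% of all genes. None passed adjustment, with *Ciita* closest (adjusted *P* = 0.151), and 0.0181% of all genes (3 genes) were called. In 5 members, *H2-Ab1*, *H2-DMb1*, *H2-Oa*, *H2-Ob* and *Ciita*, all spironolactone libraries exceeded all vehicle libraries, against 13.5% of genes without overlap in either direction. DESeq2 called 5 members here, with 1.60% of all genes that it gave an adjusted *P*, and limma-voom called 0 members and 0 genes. Without spironolactone replicate 1, edgeR called 3 members and 0.0411% of all genes (7 genes). Leaving out that library, low in class II for its group, favours such calls. Without any other single library, edgeR called 0 members and 0% to 0.199% of all genes. With prednisolone 8 members had a negative and 2 a positive log2 fold change, with a median of -0.13 (all genes, -0.014). Only *H2-Oa* (1 of 10) had an unadjusted *P* under 0.05 in edgeR, which is not above the 14.2% of all genes that did. No member was called by edgeR, DESeq2 or limma-voom, which called 1.76%, 4.64% and 1.58% of the genes that they gave an adjusted *P*. All prednisolone libraries were below all vehicle libraries for *H2-Ab1* and *H2-Oa* and above them for *H2-DMb2*, against 19.7% of genes without overlap. The vehicle libraries are shared by both contrasts against vehicle, and each drug's libraries by its contrast against vehicle and the contrast between the drugs, so these values are not independent of each other.

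**Figure D1:**
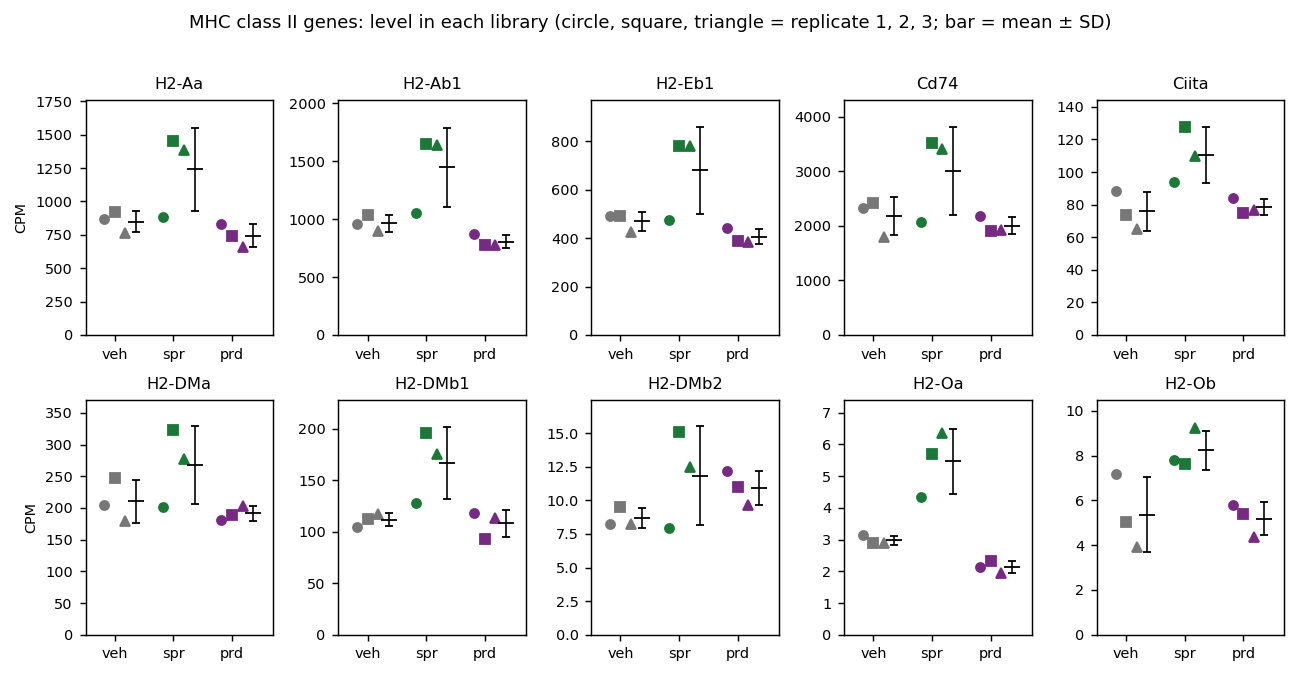
Level of each of the 10 genes in CPM (y axis, from 0) in each library of the vehicle (veh), spironolactone (spr) and prednisolone (prd) groups, with circles, squares and triangles for replicates 1, 2 and 3 and the bar for mean ± SD. Spironolactone replicates 2 and 3 lie highest for the classical chains, *Cd74*, *H2-DMa*, *H2-DMb1* and *Ciita*, and spironolactone replicate 1 lies near the vehicle libraries for most of them.

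Of the classical chains, *H2-Ab1*, the β chain of I-A, stood at 961, 1035 and 895 CPM in vehicle replicates 1 to 3, at 1056, 1650 and 1643 with spironolactone, and at 869, 773 and 780 with prednisolone. The groups did not overlap, although spironolactone replicate 1 was close to the highest vehicle library. The level with spironolactone was 1.80-fold that with prednisolone (log2 fold change 0.84 ± 0.15, edgeR adjusted *P* = 0.00732). Against vehicle the change was 0.59 ± 0.15 (edgeR adjusted *P* = 0.166). *H2-Aa*, which encodes the α chain of the same molecule, had 869, 918 and 761 CPM with vehicle, 886, 1456 and 1385 with spironolactone, and 830, 739 and 660 with prednisolone. Spironolactone replicate 1 fell among the vehicle libraries, and the drug groups did not overlap. The log2 fold change was 0.74 ± 0.16 against prednisolone (edgeR adjusted *P* = 0.0247) and 0.55 ± 0.16 against vehicle (edgeR adjusted *P* = 0.269). *H2-Eb1*, the β chain of I-E, had 491, 493 and 425 CPM with vehicle, 474, 782 and 782 with spironolactone, and 442, 390 and 386 with prednisolone. It was 0.74 ± 0.16 higher with spironolactone than with prednisolone on the log2 scale (edgeR adjusted *P* = 0.0243), with the same overlap of replicate 1 with vehicle. Without that replicate, the log2 fold changes of *H2-Ab1*, *H2-Aa* and *H2-Eb1* against prednisolone were 1.03, 0.94 and 0.95. These were the highest values when single libraries were dropped in turn, and the lowest were 0.74, 0.61 and 0.63.

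I-E needs the α chain encoded by *H2-Ea*, and C57BL strains are known to lack it. *H2-Ea* had 0 counts in 7 libraries and 1 count in each of 2, so it was not tested. *H2-Eb2*, a further β chain gene, lay between 0.854 and 2.53 CPM and its smallest adjusted *P* was that of spironolactone against prednisolone (-0.13 ± 0.38, edgeR adjusted *P* = 0.889).

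The invariant chain transcript *Cd74*, from chr18:60936899-60945731 on the plus strand, was the most abundant member. It had 2326, 2427 and 1789 CPM with vehicle, 2075, 3522 and 3420 with spironolactone, and 2182, 1900 and 1931 with prednisolone. Spironolactone replicates 2 and 3 exceeded all other libraries and replicate 1 lay within both other groups. The log2 fold change against prednisolone was 0.58 ± 0.18 (edgeR adjusted *P* = 0.0851), with a 95% confidence interval from 0.19 to 0.98. With single libraries dropped in turn, it ranged from 0.45 to 0.79 (edgeR adjusted *P* up to 0.260). Of these 9 fits, *Cd74* was called only in that without spironolactone replicate 1 (0.79, edgeR adjusted *P* = 0.00752). That replicate had the lowest *Cd74* of its group, so its removal raises the difference.

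Of the 3 genes for chains of H2-DM, 1 was called. *H2-DMb1*, a β chain, had 105, 113 and 117 CPM with vehicle, 128, 196 and 176 with spironolactone, and 119, 93.4 and 113 with prednisolone, so that spironolactone libraries lay above all others. It was 0.62 ± 0.14 higher with spironolactone than with prednisolone (edgeR adjusted *P* = 0.0242). *H2-DMa*, the α chain, had 205, 247 and 179 CPM with vehicle, 202, 324 and 277 with spironolactone, and 181, 189 and 204 with prednisolone. Here the lowest spironolactone library fell within both other groups, and the log2 fold change against prednisolone was 0.48 ± 0.16 (edgeR adjusted *P* = 0.0955). *H2-DMb2*, a second copy of the β chain, had 8.24, 9.52 and 8.23 CPM with vehicle, 7.91, 15.1 and 12.5 with spironolactone, and 12.2, 11.0 and 9.62 with prednisolone. It was the only member whose spironolactone and prednisolone means lay close together (0.12 ± 0.20, 95% confidence interval -0.31 to 0.54, edgeR adjusted *P* = 0.793). Its share of all *H2-DMb* counts was 7.28%, 7.79% and 6.54% with vehicle, 5.81%, 7.14% and 6.64% with spironolactone, and 9.32%, 10.5% and 7.84% with prednisolone. The copies are alike in sequence, as 22.7% of the 1629 distinct 50-base stretches of *H2-DMb1* transcripts in GENCODE occur unchanged in *H2-DMb2*. At 100 bases this was 11.3%. Reads from such stretches may have been left uncounted or divided, so the split between the copies is uncertain.

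H2-DO transcripts were scarce. *H2-Oa*, its α chain, had 66 to 201 counts in a library, which were 3.13, 2.90 and 2.90 CPM with vehicle, 4.33, 5.69 and 6.36 with spironolactone, and 2.13, 2.32 and 1.96 with prednisolone. The 3 groups were fully separated, in the order prednisolone, vehicle, spironolactone. Its level with spironolactone was 2.55-fold that with prednisolone (1.35 ± 0.22, edgeR adjusted *P* = 0.00478), the largest fold change among the members. Against vehicle the changes were 0.87 ± 0.21 with spironolactone (edgeR adjusted *P* = 0.164) and -0.48 ± 0.22 with prednisolone (edgeR adjusted *P* = 0.347). *H2-Oa* overlaps *BC051537* on the opposite strand. *H2-Ob*, the β chain, had 7.18, 5.02 and 3.90 CPM with vehicle, 7.82, 7.62 and 9.25 with spironolactone, and 5.77, 5.41 and 4.37 with prednisolone. Spironolactone libraries again lay above the rest, replicate 1 included, and the log2 fold change against prednisolone was 0.67 ± 0.22 (edgeR adjusted *P* = 0.0906).

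*Ciita* had 88.6, 73.9 and 64.9 CPM with vehicle, 93.8, 128 and 110 with spironolactone, and 84.1, 74.8 and 76.9 with prednisolone. Every spironolactone library was above every other library, including replicate 1. It was called higher with spironolactone than with prednisolone (0.49 ± 0.13, edgeR adjusted *P* = 0.0416), and prednisolone and vehicle differed by 0.052 ± 0.13 (edgeR adjusted *P* = 0.902). The call was kept in 3 of the 9 fits that each left out 1 library.

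**Figure D2:**
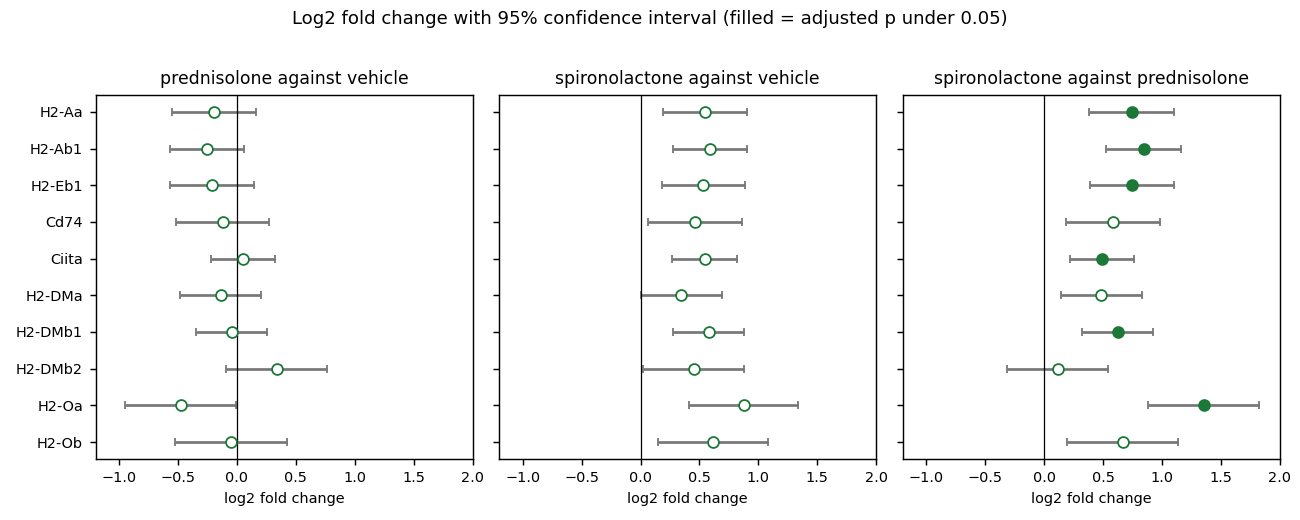
Log2 fold change of each gene (x axis) with its 95% confidence interval from edgeR in the 3 comparisons, with filled points for adjusted *P* under 0.05. The filled points, 6 in number, are all in the comparison of spironolactone with prednisolone, and only *H2-DMb2* has an interval across 0 there.

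The classical chains kept nearly fixed proportions while their levels moved. Across the 9 libraries the level of *H2-Ab1* ranged 2.14-fold (coefficient of variation 31.6%) and that of *H2-Eb1* 2.03-fold (29.8%), but the ratio of their counts only from 0.449 to 0.512 (4.25%). The ratio of *H2-Aa* to *H2-Ab1* ranged from 0.839 to 0.956 (5.17%). *Cd74* per *H2-Ab1* was lower in all spironolactone libraries (1.97, 2.13 and 2.08) than in all prednisolone libraries (2.51, 2.46 and 2.48), with vehicle at 2.42, 2.34 and 2.0. The ratio of *H2-Oa*, of H2-DO, to *H2-DMa*, of H2-DM, was the least fixed of the ratios taken, at 0.0153, 0.0117 and 0.0162 with vehicle, 0.0215, 0.0176 and 0.0230 with spironolactone, and 0.0117, 0.0123 and 0.00963 with prednisolone. Spironolactone libraries were thus above all others in this ratio. These ratios were not tested.

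**Figure D3:**
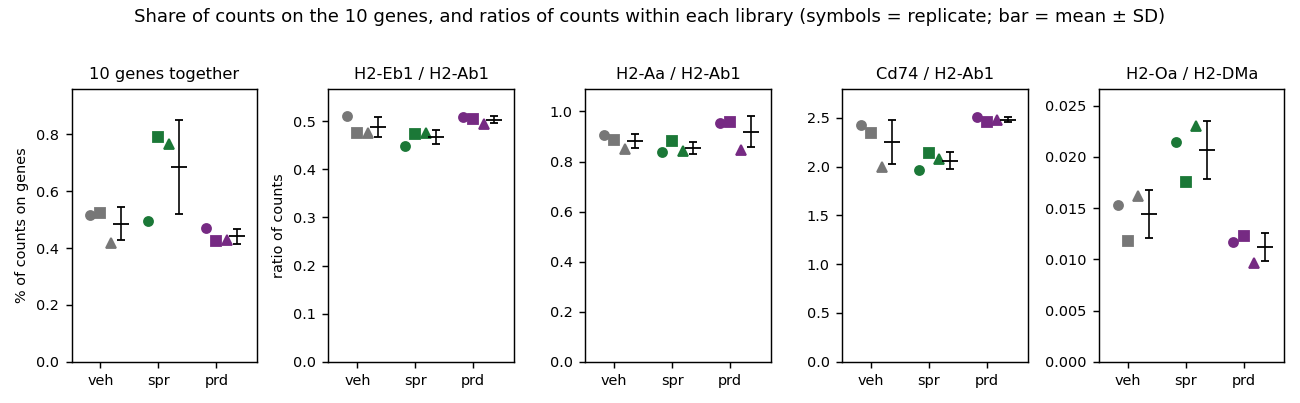
Share of all counts on genes taken by the 10 genes (left panel, %) and 4 ratios of counts within each library (y axes from 0), with symbols for replicates and bars for mean ± SD in the vehicle (veh), spironolactone (spr) and prednisolone (prd) groups. The share spans 0.418% to 0.792%, whereas *H2-Eb1* per *H2-Ab1* stays between 0.449 and 0.512.

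The members were also compared with the mean log2 CPM of *H2-Aa*, *H2-Ab1*, *H2-Eb1* and *Cd74*. Pearson's *r* over the 9 libraries, given as a description, was 0.91 for *H2-DMb1*, 0.91 for *H2-DMa*, 0.91 for *H2-Oa*, 0.88 for *Ciita*, 0.76 for *H2-Ob* and 0.63 for *H2-DMb2*. Without spironolactone replicates 2 and 3, the libraries farthest from the median, it was 0.35, 0.59, 0.67, 0.48, 0.60 and -0.33 in the same order. Of 8652 other genes with a mean of at least 10 CPM, the 10 most like this mean were *Cuta* (*r* = 0.98), *Lamtor1* (0.96), *Itm2c* (0.95), *Fiz1*, *Bmyc*, *Dxo*, *Mrpl48*, *Gfer*, *Tax1bp3* and *Arrdc1* (0.92). Without spironolactone replicates 2 and 3, their *r* lay between 0.62 for *Fiz1* and 0.92 for *Cuta*. Among them *Lamtor1* lay between 160 and 175 CPM, *Cuta* between 72.6 and 92.7, and *Bmyc*, over a wider range, between 17.4 and 31.4. *Dxo* was the only 1 of these 10 called in any comparison (spironolactone against prednisolone, 0.42, edgeR adjusted *P* = 0.0320).

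The genes between the members on chromosome 17 were taken by position, after the members' values were known. Of the 5 other protein-coding genes that passed the filter, 3 were called higher with spironolactone than with prednisolone, beside 5.17% of all genes called. They were *Psmb9* (0.68 ± 0.16, edgeR adjusted *P* = 0.0342) and *Psmb8* (0.55 ± 0.12, edgeR adjusted *P* = 0.0179), subunits of the immunoproteasome, and *Tap1* (0.48 ± 0.13, edgeR adjusted *P* = 0.0469), a peptide transporter chain, which all serve class I presentation. *Psmb8* had 142 ± 23.2 CPM with vehicle, 158 ± 5.42 with spironolactone and 108 ± 11.2 with prednisolone (SD, *n* = 3), so its prednisolone mean was farther from vehicle than its spironolactone mean was. For *H2-Ab1*, the spironolactone mean was the farther one. *Tap2* (0.31 ± 0.10, edgeR adjusted *P* = 0.0949) and *Brd2* (0.015 ± 0.082, edgeR adjusted *P* = 0.945) were not called. Against vehicle, the median of these 5 genes was 0.11 with spironolactone, beside 0.55 for the 10 members.

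Genes of the steps around class II were described from lists. Of 9 endosomal proteases and reductases that cut the invariant chain and antigens, 3 were called higher with spironolactone than with prednisolone and none lower. Of all genes, 5.17% were called in this comparison. *Ctsd*, an aspartic protease, had 7657, 6748 and 7021 CPM with vehicle, 7945, 7886 and 8260 with spironolactone, and 6302, 5977 and 6513 with prednisolone (0.36 ± 0.096, edgeR adjusted *P* = 0.0469). *Ctsh* (0.43 ± 0.11, edgeR adjusted *P* = 0.0422) and *Ifi30*, the thiol reductase GILT (0.37 ± 0.098, edgeR adjusted *P* = 0.0443), were the others. *Ctss*, the main protease of the invariant chain, was not called (0.20 ± 0.12, edgeR adjusted *P* = 0.365). None of the 9 was called for either drug against vehicle, where edgeR gave an unadjusted *P* under 0.05 for 2 with prednisolone and 1 with spironolactone, beside 14.2% and 9.29% of all genes.

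The 7 genes of the complex that binds the X and Y boxes were called in no comparison. Their median log2 fold change was -0.035 for spironolactone against prednisolone and -0.085 for spironolactone against vehicle, and edgeR gave an unadjusted *P* under 0.05 for 0 of 7 in both. The smallest *P* of the list was that of *Rfxank*, an RFX subunit, for prednisolone against vehicle (-0.32 ± 0.15, edgeR adjusted *P* = 0.334).

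Of 8 genes of IFN-γ receptor signaling, *Irf1*, *Irf8* and *Socs1* were called higher with spironolactone than with prednisolone, beside 5.17% of all genes called. *Irf1*, a transcription factor that acts on a *Ciita* promoter, had 85.6, 91.9 and 90.1 CPM with vehicle, 90.0, 95.1 and 81.0 with spironolactone, and 65.8, 62.1 and 63.2 with prednisolone. The prednisolone libraries lay apart from all others, and spironolactone and vehicle overlapped. *Irf1* was lower with prednisolone than with vehicle (-0.49 ± 0.085, edgeR adjusted *P* = 0.0122) and higher with spironolactone than with prednisolone (0.48 ± 0.085, edgeR adjusted *P* = 0.00781), whereas spironolactone and vehicle differed by -0.0084 ± 0.085 (edgeR adjusted *P* = 0.987). *Irf8*, a factor of monocyte and dendritic cell development, had 277, 275 and 246 CPM with vehicle, 282, 284 and 310 with spironolactone, and 209, 204 and 228 with prednisolone (0.45 ± 0.090 between the drugs, edgeR adjusted *P* = 0.0129). *Socs1*, a feedback inhibitor of the receptor, was 0.81 ± 0.21 higher with spironolactone than with prednisolone (edgeR adjusted *P* = 0.0411). Against vehicle its change was 0.14 ± 0.21 with spironolactone (edgeR adjusted *P* = 0.896) and -0.67 ± 0.21 with prednisolone (edgeR adjusted *P* = 0.140). *Ifng* itself had 0 to 5 counts in a library.

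Among 6 co-stimulatory and co-inhibitory genes, the called genes went in different directions. Between the drugs 2 were called higher and 1 lower with spironolactone, beside 5.17% of all genes called. *Cd40*, which receives help from T cells, had 14.5, 13.4 and 18.4 CPM with vehicle, 18.3, 22.8 and 19.1 with spironolactone, and 12.6, 8.50 and 12.2 with prednisolone, and was higher with spironolactone than with prednisolone (0.85 ± 0.17, edgeR adjusted *P* = 0.0119). *Cd80*, a ligand of CD28, was lower with spironolactone (24.5, 38.2 and 30.3 CPM) than with prednisolone (58.5, 63.0 and 51.8 CPM), by -0.90 ± 0.17 (edgeR adjusted *P* = 0.0151). *Cd274*, which encodes PD-L1, had 74.4, 61.6 and 71.2 CPM with vehicle, 55.1, 47.0 and 42.7 with spironolactone, and 38.5, 34.1 and 33.5 with prednisolone. It was lower with prednisolone than with vehicle (-0.97 ± 0.11, edgeR adjusted *P* = 0.00116) and higher with spironolactone than with prednisolone (0.45 ± 0.11, edgeR adjusted *P* = 0.0343). No class II member was called lower with prednisolone than with vehicle. Of the 3 genes for turnover and display of class II, none was called. *Cd83*, which keeps class II at the surface by opposing the ubiquitin ligase MARCH1, had the smallest *P* of that list (prednisolone against vehicle, -0.67 ± 0.19, edgeR adjusted *P* = 0.119).

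**Figure D4:**
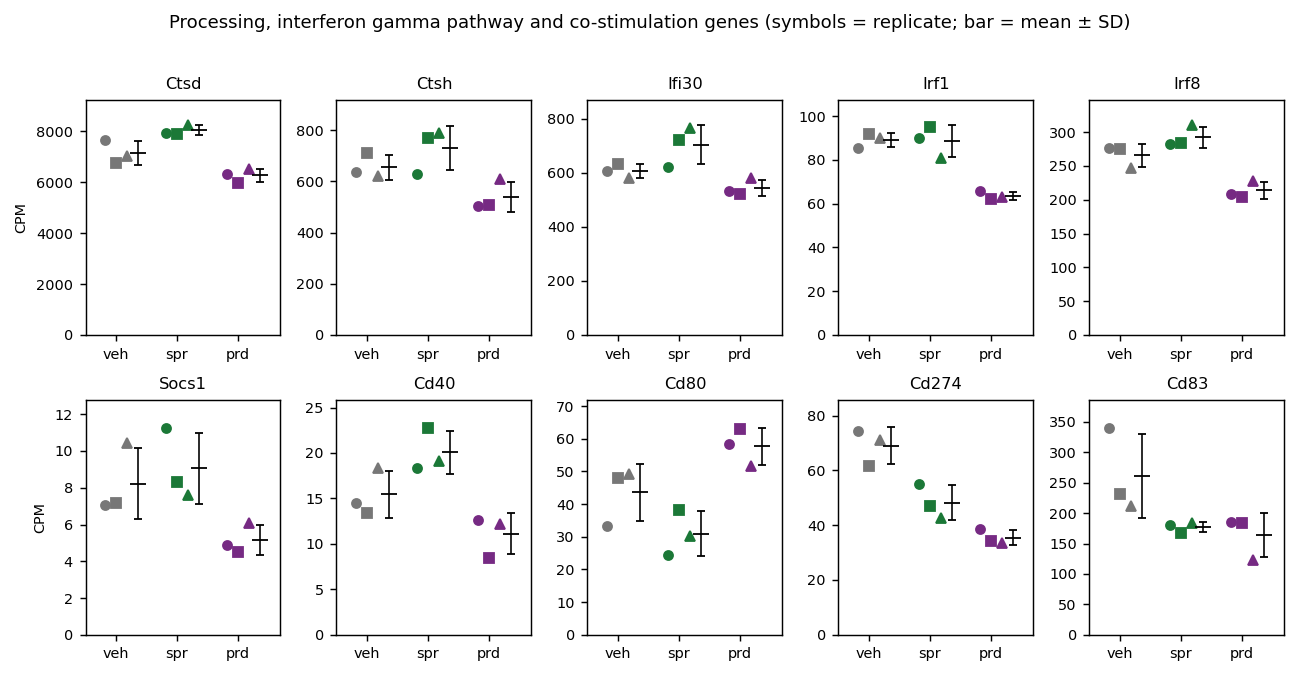
Level in CPM (y axis, from 0) of the 9 pathway genes called in a comparison and of *Cd83*, in each library of the vehicle (veh), spironolactone (spr) and prednisolone (prd) groups, with symbols for replicates and bars for mean ± SD. *Irf1* and *Irf8* are lowest in the prednisolone libraries (62.1 to 65.8 and 204 to 228 CPM), and *Cd80* is highest there.

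The libraries are bulk samples, so a change in the share of class II-rich cells and a change in transcripts per cell cannot be told apart. Markers of several cell types moved with the groups, and their part in the class II values was not tested. The 12 dendritic cell markers summed to 490, 464 and 462 CPM with vehicle, 428, 620 and 633 with spironolactone, and 663, 822 and 740 with prednisolone. Spironolactone replicate 1 was the lowest library of all in this sum. Its class II sum was the lowest of its group but above vehicle replicate 3 and every prednisolone library. Most of the dendritic cell sum was *Itgax*, which encodes CD11c and was lower with spironolactone than with prednisolone (-0.68 ± 0.15, edgeR adjusted *P* = 0.0238). *Clec10a* (0.48 ± 0.096, edgeR adjusted *P* = 0.0135) and *Batf3* (0.93 ± 0.20, edgeR adjusted *P* = 0.0187), of conventional dendritic cells, were higher. The other 9 of the 12 were not called between the drugs, where 5.17% of all genes were called. Without *Itgax*, a step chosen after seeing the data, the other 11 markers summed to 156, 139 and 140 CPM with vehicle, 159, 220 and 235 with spironolactone, and 191, 169 and 159 with prednisolone. Of the 12 markers, 8 had a positive log2 fold change for spironolactone against prednisolone, with a median of 0.26 beside 0.64 for the class II members. EdgeR gave 5 of the 12 an unadjusted *P* under 0.05 between the drugs, beside 22.5% of all genes. For spironolactone against vehicle 11 had a positive log2 fold change, with a median of 0.47 beside 0.55 for the class II members. In that contrast the medians were 1.03 for endothelial, 0.89 for T and NK cell, 0.88 for skeletal muscle, 0.62 for B cell and 0.41 for fibro-adipogenic markers. They lay between -0.14 and -0.034 for macrophage, resident-like macrophage, monocyte and neutrophil markers. None of the 12 dendritic cell markers was called against vehicle with spironolactone. EdgeR gave 7 of them an unadjusted *P* under 0.05, beside 9.29% of all genes. Among these were *Cd209a* (0.88 ± 0.22, edgeR adjusted *P* = 0.188), *Xcr1* (0.87 ± 0.27, edgeR adjusted *P* = 0.270) and *Flt3* (0.55 ± 0.13, edgeR adjusted *P* = 0.129). In the same contrast 5 of 6 endothelial, 5 of 10 T and NK cell, 4 of 5 tested skeletal muscle and 3 of 6 fibro-adipogenic markers had such a *P*. The other marker lists had at most 1. With prednisolone against vehicle, 8 of the 12 dendritic cell markers were higher, with a median of 0.19 beside -0.13 for the class II members. EdgeR gave 5 of them an unadjusted *P* under 0.05, beside 14.2% of all genes, and *Itgax* was called (0.80 ± 0.15, edgeR adjusted *P* = 0.0197). *Batf3* had 6.63, 6.86 and 5.17 CPM with vehicle, 6.74, 9.83 and 9.37 with spironolactone, and 3.80, 5.01 and 4.81 with prednisolone.

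The 10 T and NK cell markers summed to 24.0 to 26.8 CPM with vehicle, 37.1 to 43.3 with spironolactone and 15.5 to 23.9 with prednisolone, and *Cd4*, *Nkg7*, *Ncr1* and *Gzma* were called higher with spironolactone than with prednisolone. Most of this sum was *Cd4*, with means of 17.6 CPM with vehicle, 25.6 with spironolactone and 12.0 with prednisolone, and *Cd3e* was at most 0.76 CPM. The 8 B cell markers summed to 53.3 to 64.7, 61.5 to 65.4 and 40.0 to 55.0 CPM. Most of this was *Cd22*, *Ighm* was listed at 0 in every library, and *Ms4a1* did not exceed 0.95 CPM. *Cd79a* and *Cd79b* were called higher with spironolactone than with prednisolone, with *Cd79a* at 1.49, 1.39 and 1.61 against 0.243, 0.0306 and 0.178 CPM. The 6 endothelial markers summed to 49.1 to 85.3, 108 to 168 and 62.3 to 86.3 CPM, with *Pecam1* and *Cdh5* called higher with spironolactone than with prednisolone, and the 6 skeletal muscle markers to 163 to 253, 312 to 516 and 263 to 397 CPM. The endothelial sum was highest in spironolactone replicate 1, which had the lowest class II sum of its group. Between the drugs, where 5.17% of all genes were called, 1 of 7 macrophage markers, *Itgam*, was called lower. Of 7 resident-like macrophage markers, 1 was called higher and 2 lower. None of the 7 monocyte, 7 neutrophil, 5 tested skeletal muscle or 6 fibro-adipogenic markers was called. Of these last 4 lists, edgeR gave an unadjusted *P* under 0.05 for 2, 1, 1 and 1 genes, beside 22.5% of all genes. The neutrophil markers had a median log2 fold change of 1.35 between the drugs, and *Ly6g*, *S100a8*, *S100a9* and *Retnlg* were higher in every spironolactone than in every prednisolone library. The 7 neutrophil markers summed to 636, 962 and 2829 CPM with vehicle, 993, 1261 and 2063 with spironolactone, and 970, 932 and 761 with prednisolone. Vehicle replicate 3, highest in this sum, was the lowest vehicle library in class II. Among spironolactone libraries it was the other way, as replicate 1 was lowest both in this sum and in class II.

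**Figure D5:**
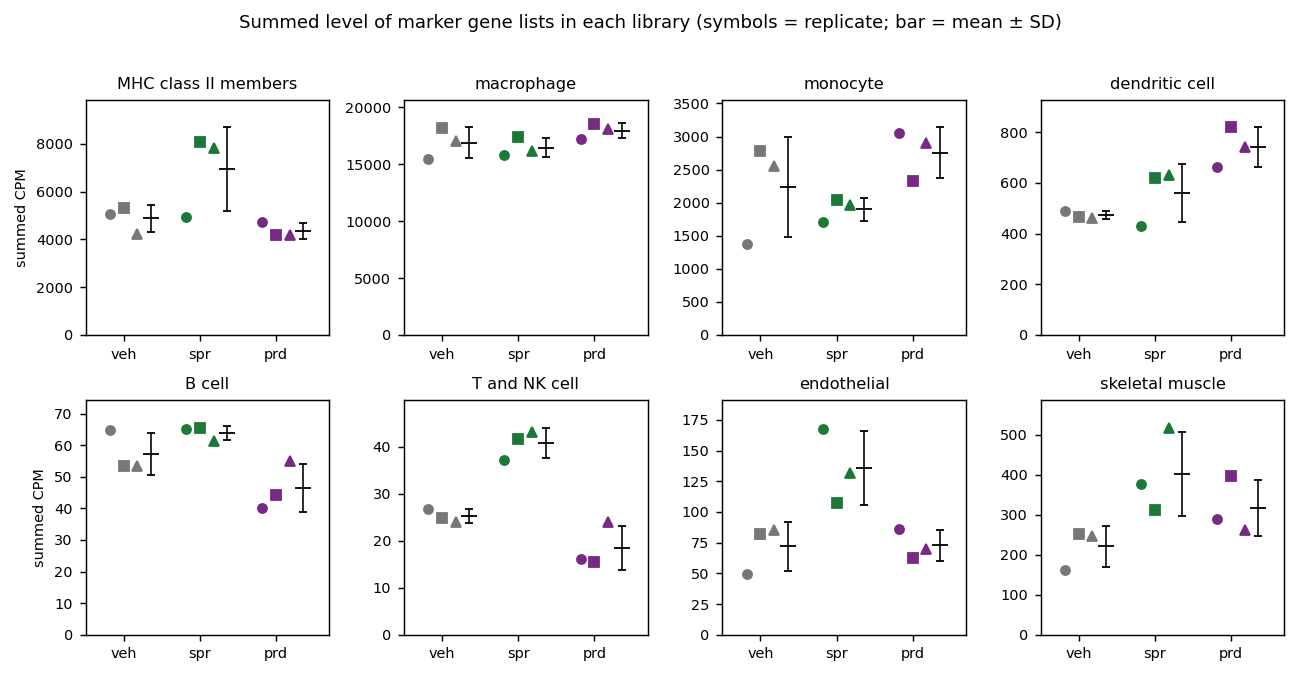
Summed CPM (y axis, from 0) of the 10 class II genes and of 7 lists of cell type markers in each library of the vehicle (veh), spironolactone (spr) and prednisolone (prd) groups, with symbols for replicates and bars for mean ± SD. The class II sum is 4935, 8086 and 7821 CPM in the spironolactone libraries, and the T and NK cell sum, most of it *Cd4*, is above all other libraries in all 3 of them. The dendritic cell sum, most of it *Itgax*, is 663 to 822 CPM with prednisolone and 428 to 633 with spironolactone.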

How the data were processed

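RNA-Seq libraries of sorted myeloid cells (3 per group) were analysed from gene counts. The authors aligned reads to mm39 (GRCm39) with Hisat2 (2.2.1), sorted them with Samtools, and counted per gene with HTSeq (0.11.3), which gave the deposited counts, whole numbers without normalization. Versions are from the submitters' processing notes, and the annotation release and strand setting are not given in the sources used here. Deposited tables of the authors' own DESeq2 comparisons (fold changes and p-values) were not used. Lines naming no gene (17.2% to 21.8% of reads or pairs in a library) were left out.

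Counts were fitted with edgeR 4.0.16 (R 4.3.3, TMM, filterByExpr with minimum count 10 and minimum total 15, glmQLFit with robust=TRUE, all 9 libraries) and tested two-sided with Benjamini-Hochberg adjustment. The scripts were tested on simulated data. SE is the log2 fold change over the root of F. TMM factors ranged from 0.980 to 1.03 and the biological coefficient of variation was 0.170. Alternatives were DESeq2 1.42.0, limma-voom (limma 3.58.1), 2-group fits, RLE, no filter, a replicate block, an *Xist* covariate, and leaving out each library. Lengths, positions and promoter windows are from GENCODE on GRCm39, and promoter sequence is from that genome.

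The members and all gene and marker lists were chosen with earlier results of these data known. Named genes are the members, called pathway genes or the smallest *P* of a list without calls, the 10 genes most like the classical chains, and genes named by position or as markers. *Ctss*, *Ifng*, *H2-Ea* and *Xist* were named outside this rule. No protein sequences were compared here.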

Additional observations from a re-analysis of the deposited data

How the results depend on the processing

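The members' directions held in most alternatives. Of the 480 values recomputed, 428 kept direction and side of the threshold, 24 became called, 23 lost the call, and 5 changed sign, all in fits without 1 library and for log2 fold changes that were never called. For prednisolone against vehicle these were *H2-Ob* (-0.23 to 0.22, positive without vehicle replicate 1 at 0.22 and without prednisolone replicate 3 at 0.060), *Ciita* (-0.045 to 0.18, negative without vehicle replicate 3) and *H2-DMb1* (-0.11 to 0.055, positive without prednisolone replicate 2). For spironolactone against prednisolone it was *H2-DMb2* (-0.10 to 0.34, negative without spironolactone replicate 2). The cause was not tested. The count of members called for spironolactone against vehicle was 0 in edgeR (0.0181% of all genes called), 5 with DESeq2 (1.60%) and 6 without the low-count filter (1.78%). It was 0 to 3 when 1 library was left out, with 0% to 0.199% of all genes called (3 without spironolactone replicate 1, with 0.0411%). For spironolactone against prednisolone it was 6, and 2 to 8 when 1 library was left out, with 9 by DESeq2 (10.1% of all genes called), 9 without the filter (6.52%), 7 in the 2-group fit (9.98%), 6 with RLE (5.18%), 5 with limma-voom (4.95%) and 5 with the *Xist* covariate (3.82%). Over the fits without 1 library, 1.35% to 11.1% of all genes were called in this comparison. The 11.1% was without vehicle replicate 1, where 7 members were called. For prednisolone against vehicle, that fit called 4.83% of all genes, against 1.76% with all 9 libraries, and 0 members. *H2-Ab1* and *H2-Oa* were called in all 9 fits without 1 library (adjusted *P* up to 0.0490 and 0.0304) and in all 7 other alternatives. Whether replicate numbers pair libraries is not given in the sources used here. Deviations from the group means correlated from -0.038 to 0.15 for same numbers and from -0.168 to 0.0440 for different numbers. The highest values were those of vehicle with spironolactone at the same number (0.151 for replicate 3 and 0.117 for replicate 1). Pairing was therefore not excluded. With a replicate block 0, 0 and 6 members were called for prednisolone against vehicle, spironolactone against vehicle, and spironolactone against prednisolone. The shares of all genes called were 2.02%, 0.0481% and 6.51%. *H2-Oa* rested on 66 to 201 counts in a library.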
